A study of Mus musculus with 9 samples.

Results

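Cytoplasmic ribosomal protein genes encode the protein part of the ribosome outside mitochondria. The set was chosen by gene name: every protein-coding mouse gene whose symbol is Rpl or Rps followed by a digit, plus Rplp0, Rplp1, Rplp2 and Rpsa. Pseudogene symbols ending in -ps, the Rps6k kinases, Rps19bp1 and Rpl7l1 were left out. This gave 84 genes, 33 of the small and 51 of the large subunit, out of 49671 gene rows and 21811 protein-coding rows. The family was picked for description with the ko/ko against wt/wt values of these same libraries already known, so its fold changes are given below as a description, without a test over the family.

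The samples were sorted mouse skin cells of 2 Flg genotypes, 4 ko/ko and 5 wt/wt, used to ask what loss of filaggrin, which packs keratin in the cornified layer, does to gene expression of keratinocytes. The labels name no treatment, and strain, age and sex of the animals are not analysed here. All samples were labelled as epidermal cells that lack surface CD45, the pan-leukocyte protein, and carry CD49f, the integrin alpha-6 chain. Polyadenylated RNA was amplified with the SMARTseq2 protocol and fragmented with a transposase before sequencing. Each title carries its own identifier, taken here as 1 animal per library. If samples shared a source, p-values would measure a spread that is partly technical.

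Ribosomal proteins assemble with ribosomal RNA in the nucleolus into a small subunit, which reads the mRNA, and a large subunit, which joins amino acids. Their mRNAs are among the most abundant of a growing cell. Most begin with a terminal oligopyrimidine tract, a C followed by further C and T letters, through which the kinase mTOR and the protein Larp1 control their translation. In mouse skin, mutations of Rps19 or Rps20 are known for dark skin, through p53 and the growth factor Kitl in keratinocytes. Genomes of mammals hold many processed pseudogenes of these genes, which are intronless copies of the mature mRNA.

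Start-site windows were available from RefSeq for 64 of the 84 genes, in build GRCm38.p6. Each stretch below runs from 40 bases before to 20 bases from the annotated start. Capitals mark the longest run of C and T near the annotated start, which differs in length and place among genes described below. This run need not be the tract itself, and in Rps24, Rpl38, Rpl22l1 and Rplp2 it begins with T.
Rps24: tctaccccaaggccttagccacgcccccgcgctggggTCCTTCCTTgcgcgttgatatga
Rps21: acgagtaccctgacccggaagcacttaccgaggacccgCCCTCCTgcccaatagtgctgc
Rps6: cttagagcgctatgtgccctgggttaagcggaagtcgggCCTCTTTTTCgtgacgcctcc
Rpl38: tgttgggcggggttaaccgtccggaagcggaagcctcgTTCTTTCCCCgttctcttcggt
Rpl13a: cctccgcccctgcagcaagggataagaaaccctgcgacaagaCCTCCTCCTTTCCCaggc
Rpl22l1: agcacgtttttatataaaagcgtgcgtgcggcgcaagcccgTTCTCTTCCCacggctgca
Rplp2: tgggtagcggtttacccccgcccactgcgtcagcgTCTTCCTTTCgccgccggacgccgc
The windows lie at chr14:24490638-24490697 (Rps24, plus strand), chr2:180257339-180257398 (Rps21, plus), chr4:86857348-86857407 (Rps6, minus) and chr11:114668540-114668599 (Rpl38, plus). Those of the other genes lie at chr7:45128726-45128785 (Rpl13a, minus), chr3:28805468-28805527 (Rpl22l1, plus) and chr7:141447611-141447670 (Rplp2, plus). The longest runs are 9 bases in Rps24, 7 in Rps21, 10 in Rps6, Rpl38, Rpl22l1 and Rplp2, and 14 in Rpl13a. A run of at least 8 C or T, searched on the transcribed strand from 20 bases before to 30 after the start, was present in 35 of 76 windows of these genes (46.1%) and in 6226 of all 32851 windows (19%). A window is 300 bases, and genes with several annotated starts have several windows; the one listed first is printed.

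A second set of windows shows a pair that count reads can hardly separate. Rps27, a zinc-finger protein of the small subunit, has a retrogene, Rps27rt, whose coding sequence is identical to it (100% of 255 bases). Capitals here mark the part, within the printed stretch, of the longest run shared by both windows, 38 bases that begin at the second base of Rps27 and the first of Rps27rt.
Rps27: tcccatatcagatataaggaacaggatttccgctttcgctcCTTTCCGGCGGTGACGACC
Rps27rt: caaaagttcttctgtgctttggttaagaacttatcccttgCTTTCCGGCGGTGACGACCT
They lie at chr3:90213629-90213688 (Rps27) and chr9:114982720-114982779 (Rps27rt), both on the minus strand. The letters upstream of the shared run differ between the 2 loci. CTTTCC, with which the shared run begins, was found on either strand in 38 of 76 windows of the family (50%) and in 26.6% of all windows. CCGGAAGT, a core bound by factors of the ETS family, was found in 12 of 76 (15.8%) against 3.89% of all windows. TATAAA was found in 7 of 76 (9.21%) against 13.6% of all. In 0 windows of the family did a CTTTCC match share bases with a CCGGAAGT match.

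Library totals ran from 15601859 to 23200440 counts, and 18435 genes had enough counts to be tested, among them 83 of the 84 ribosomal protein genes. Rpl10l, the testis paralog of Rpl10, had 1 count in ko/ko replicate 1, 4 in ko/ko replicate 4, 1 in wt/wt replicate 1 and none elsewhere, and was removed by the filter. Flg had 2, 0, 0 and 4 counts in ko/ko replicates 1 to 4, and 0, 0, 6, 2 and 4 counts in wt/wt replicates 1 to 5, too few to check the genotype. The fibroblast proteoglycan Dcn exceeded the basal keratin Krt14 in 9 of 9 libraries, which goes against the epidermal label. Summed myeloid markers were 487, 467, 250 and 63.5 CPM in ko/ko replicates 1 to 4, against 136, 47.6, 98.3, 90.9 and 62.8 CPM in wt/wt replicates 1 to 5, and all 13 tested of 14 had positive fold changes. No marker of that list was at 0 in all libraries, and its part in the values below was not tested. Basal keratinocyte markers summed to 2259 to 4013 CPM in ko/ko and 2069 to 4758 CPM in wt/wt libraries, and fibroblast markers to 39370 to 60397 CPM in ko/ko and 28204 to 57451 CPM in wt/wt. Identifiers of the libraries run in 1 block per genotype, so batches of library preparation, if any, cannot be told apart from genotype.

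Together the 84 genes took a smaller mean share of counts in ko/ko libraries, but the groups overlapped. Their share was 0.81%, 0.747%, 0.853% and 0.735% in ko/ko replicates 1 to 4, against 0.81%, 0.902%, 0.947%, 1.11% and 1.08% in wt/wt replicates 1 to 5. The mean was 0.786 ± 0.0557% in ko/ko (SD, n = 4) and 0.969 ± 0.124% in wt/wt (SD, n = 5). Replicates 3 to 5 of wt/wt lay above every ko/ko library, while ko/ko replicate 3 lay above wt/wt replicate 1. Small subunit genes took 0.313 ± 0.0225% in ko/ko and 0.417 ± 0.0756% in wt/wt (SD, n = 4 and 5). Large subunit genes took 0.473 ± 0.0344% in ko/ko and 0.552 ± 0.0499% in wt/wt (SD, n = 4 and 5). In these bulk samples, fewer cells of a type and less RNA per cell cannot be told apart.

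**Figure D1:**
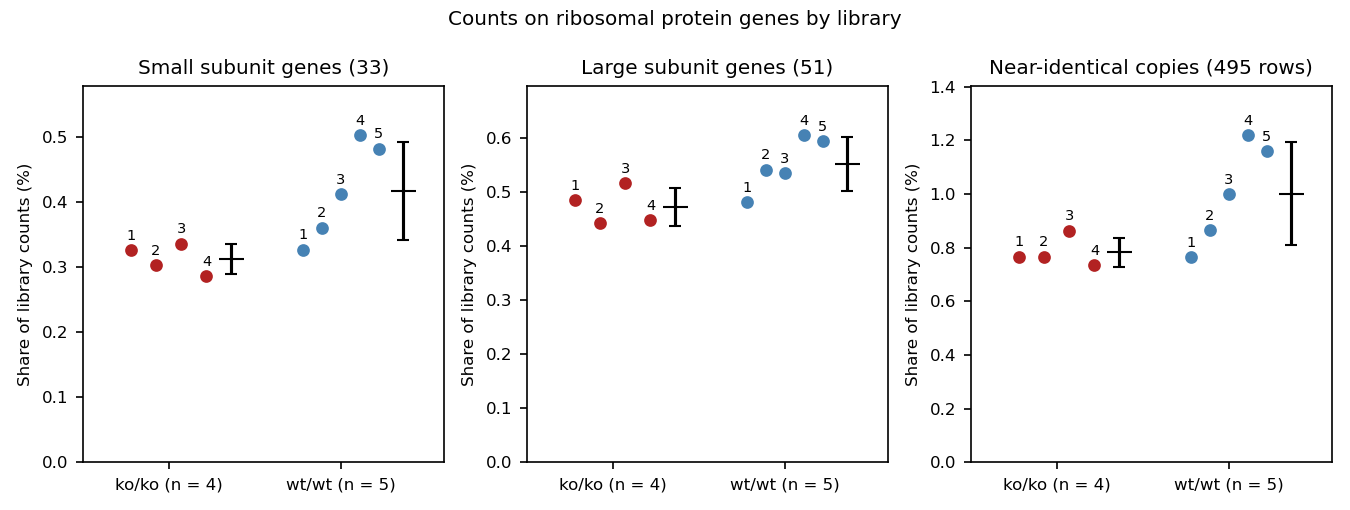
Share of library counts in percent (vertical axis, from 0) for small subunit genes, large subunit genes and other rows near-identical to them; points are libraries numbered by replicate, ko/ko in red and wt/wt in blue, with mean and SD in black. Small subunit shares lay between 0.286% and 0.336% in ko/ko and between 0.327% and 0.503% in wt/wt, with wt/wt replicates 4 and 5 at the top of each panel.

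Other library measures also varied between libraries without following this share throughout, and their part in it was not tested. Mitochondrially encoded genes took 6.3%, 1.81%, 1.81% and 2.01% of counts in ko/ko replicates 1 to 4, against 5.67%, 7.55%, 4.38%, 6.08% and 2.77% in wt/wt replicates 1 to 5. A group of predicted genes around Gm10800 had 5220, 31.8, 143 and 15700 CPM in ko/ko replicates 1 to 4, against 2940, 375, 5.23, 4.36 and 4.05 CPM in wt/wt replicates 1 to 5. Wt/wt replicates 3 to 5, which had the highest ribosomal protein shares, had the lowest values of that group. Ko/ko replicate 2 was next lowest, at 31.8 CPM, but had a ribosomal protein share of 0.747%. In the sample titles the identifiers of all ko/ko samples lie between those of wt/wt replicates 1 and 2 and those of wt/wt replicates 3 to 5, and what these identifiers count is not given in the sources used here.

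Among the tested genes, 78 of 83 had a negative log2 fold change, ko/ko over wt/wt (94%), against 52.6% of all genes tested. The median was -0.42, with quartiles at -0.57 and -0.25, against a median of -0.03 over all genes. Values ran from -1.0 for Rps24 to 0.17 for Rps2. Small subunit genes had a median of -0.49 with 32 of 33 negative, and large subunit genes -0.36 with 46 of 50 negative. By edgeR's quasi-likelihood test with Benjamini-Hochberg adjustment over all genes, 0 of 83 were called lower (0% of all genes) and 0 higher (0.00542% of all genes), the smallest adjusted p being 0.127 for Rpl22l1. An unadjusted p under 0.05 was found for 39 of 83 lower (6.42% of all genes) and 0 higher (8.86% of all). All ko/ko libraries lay below all wt/wt libraries for 19 genes (2.74% of all genes), and above for 0 (3.51% of all). DESeq2 called 12 of 82 lower (1.11% of all genes) and 0 higher (2.53%), and limma voom with quality weights called 39 of 83 lower (3.17%) and 0 higher (6.6%). Since the family was picked with this contrast known, nothing is read from these counts.

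**Figure D2:**
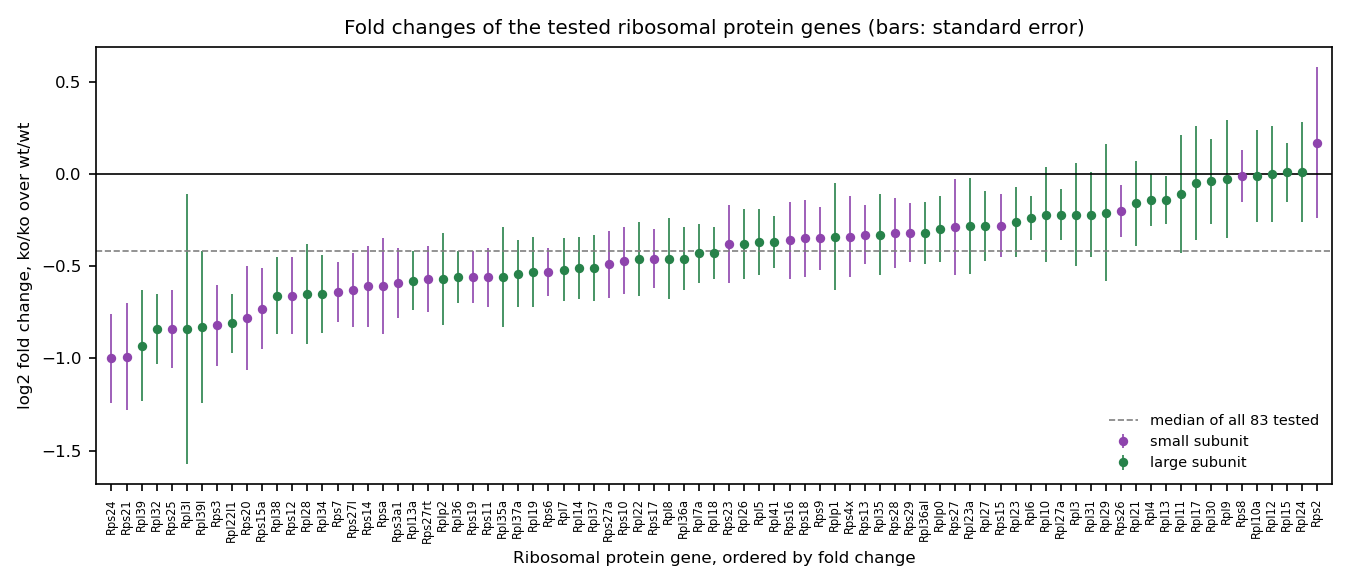
Log2 fold change, ko/ko over wt/wt (vertical axis), of 81 of the 83 tested ribosomal protein genes ordered from lowest to highest, small subunit genes in purple and large subunit genes in green, bars being the standard error and the dashed line the median of all 83, -0.42. Nearly all points sit below 0, and the genes at the right end, from Rpl11 to Rps2, have bars that cross 0.

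The most negative fold changes belonged to Rps24, Rps21, Rpl39, Rpl32, Rps25 and Rpl3l. Rps24, whose human counterpart is mutated in Diamond-Blackfan anaemia, had 61.1, 65.8, 69.6 and 58.4 CPM in ko/ko replicates 1 to 4, against 73.8, 91.4, 136, 182 and 153 CPM in wt/wt replicates 1 to 5. All ko/ko values were below all wt/wt values, with a log2 fold change of -1.0 (SE 0.24). Rps21, a neighbour of Rpsa in the small subunit, had 40.2, 42.2, 38.9 and 36.2 CPM in ko/ko replicates 1 to 4, against 46.7, 41.4, 82.1, 116 and 105 CPM in wt/wt replicates 1 to 5. Here wt/wt replicate 2 lay inside the ko/ko range, and the log2 fold change was -0.99 (SE 0.29).

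Rpl39, a small protein that lines the exit tunnel, had 39.8, 42, 51.4 and 36.1 CPM in ko/ko replicates 1 to 4, against 40.7, 52.2, 82.3, 133 and 95.5 CPM in wt/wt replicates 1 to 5 (log2 fold change -0.93, SE 0.30). The groups overlapped through wt/wt replicate 1. Rpl32, of the large subunit, had 250, 239, 239 and 223 CPM in ko/ko replicates 1 to 4, against 306, 330, 452, 556 and 487 CPM in wt/wt replicates 1 to 5 (log2 fold change -0.84, SE 0.19). Rps25, known for roles in initiation on internal ribosome entry sites, had 64.9, 59.9, 56.1 and 45.5 CPM in ko/ko replicates 1 to 4, against 71.2, 80.8, 103, 144 and 108 CPM in wt/wt replicates 1 to 5 (log2 fold change -0.84, SE 0.21). Neither Rpl32 nor Rps25 overlapped between genotypes, and wt/wt replicate 4 was the highest library for both. Rpl32 shares 20% of its exon bases with Cand2 and the small nucleolar RNA Snora7a, and Rps25 shares 24.8% with Ccdc84 and Trappc4, so reads of these neighbours could not be told apart without strand.

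Toward the other end were Rps2, Rpl15, Rpl24, Rpl12 and Rpl10a. Rps2, at the mRNA entry channel, had 65.7, 22, 26.9 and 23 CPM in ko/ko replicates 1 to 4, against 53, 39.4, 24, 17.7 and 18.1 CPM in wt/wt replicates 1 to 5 (log2 fold change 0.17, SE 0.41). Its positive sign rested on ko/ko replicate 1, since the log2 fold change was -0.35 without ko/ko replicate 1 alone, and -0.02 when the 3 libraries with most Gm10800-group reads, ko/ko replicates 1 and 4 and wt/wt replicate 1, were left out. Rpl15 had 55.2 to 85.2 CPM in ko/ko and 51.7 to 72.4 CPM in wt/wt libraries (log2 fold change 0.01, SE 0.16). Rpl12, at the base of the stalk, and Rpl10a, of the L1 stalk where spent tRNA leaves, had fold changes near 0, at 0.00 (SE 0.26) for Rpl12 and -0.01 (SE 0.25) for Rpl10a on the log2 scale. These 5 differences were all within their standard error, and 4 of them changed sign under at least 1 other processing setting that left all libraries in; that of Rps2 changed sign without some libraries.

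**Figure D3:**
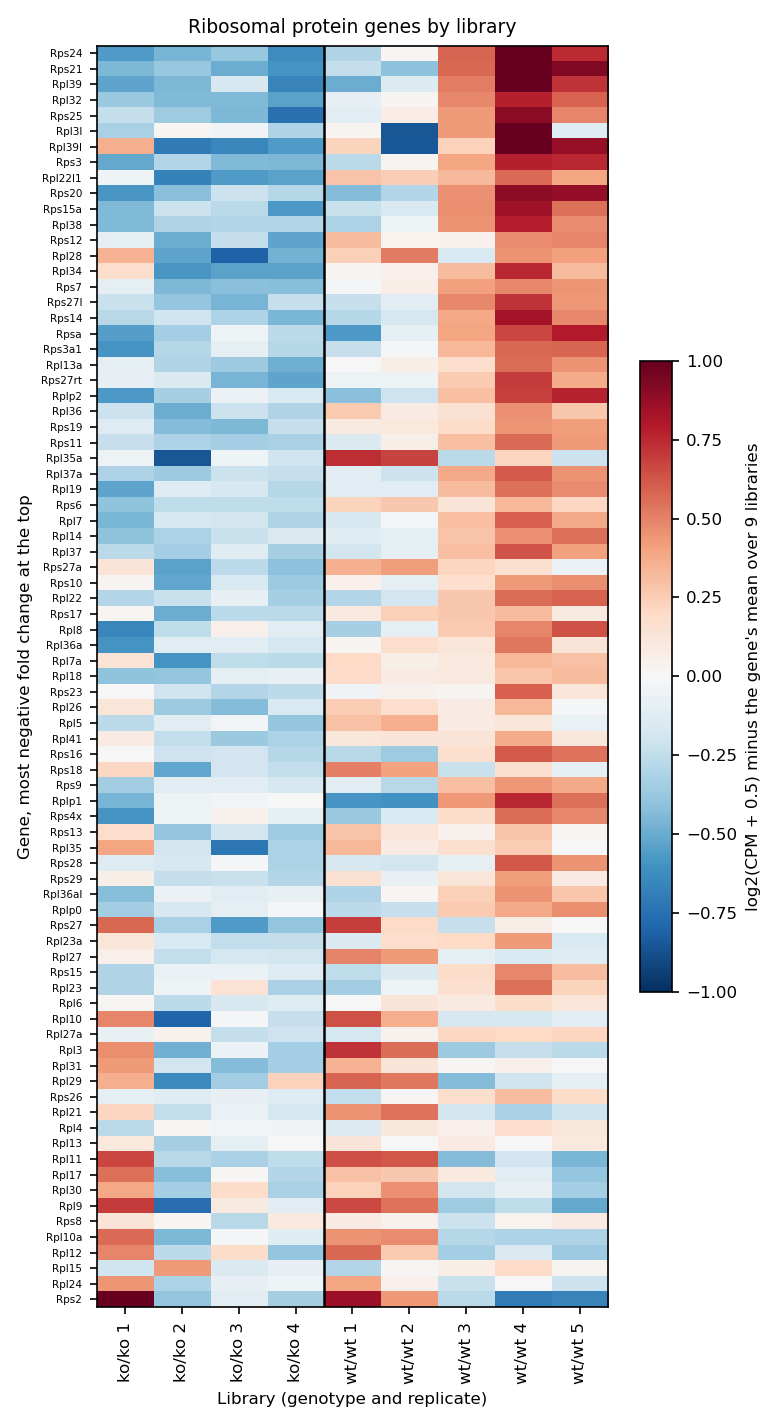
Each row is 1 gene, for 81 of the 83 tested, ordered by fold change with the most negative at the top, and each column 1 library, ko/ko left of the black line and wt/wt right of it; colour is log2(CPM + 0.5) minus that gene's mean over 9 libraries. Most rows are reddest in wt/wt replicate 4 (48 of all 83 genes), while rows near the bottom are reddest in ko/ko replicate 1 and wt/wt replicates 1 and 2.

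The libraries were not alike within a genotype, and the genes followed 2 profiles across them. The median deviation of the 83 genes from their own mean was -0.09, -0.30, -0.19 and -0.29 on the log2 scale in ko/ko replicates 1 to 4, against 0.01, 0.04, 0.17, 0.44 and 0.30 in wt/wt replicates 1 to 5. All genes tested had medians between -0.00 and 0.02 in these libraries. Wt/wt replicate 4 was the highest library for 48 genes, and ko/ko replicate 2 the lowest for 24. For 40 genes (48.2%, against 10.9% of all genes) the 3 highest libraries were wt/wt replicates 3, 4 and 5. For 16 others (19.3%, against 6.62% of all genes) they were ko/ko replicate 1 and wt/wt replicates 1 and 2. These 16 were Rpl3, Rpl9, Rpl10, Rpl10a, Rpl11, Rpl12, Rpl17, Rpl21, Rpl24, Rpl27, Rpl29, Rpl30, Rpl31, Rps2, Rps18 and Rps27. They had a median log2 fold change of -0.14, against -0.56 for the 40. The 40 were grouped by wt/wt libraries being highest, so their more negative median follows from the grouping and nothing is read from it.

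The profiles also differed in how much of the sequence is unique to the gene, as a description after the profiles were seen. Of 50-base stretches of the principal transcript, a median of 24.8% occurred in no other annotated gene for the 16, and 61.9% for the 40. The ranges overlapped widely, at 1.35% to 73.8% for the 16 and 8.92% to 100% for the 40. The ratio of exon length to principal transcript also differed, with medians of 2.35 for the 16 and 1.64 for the 40. The 16 had a median of 6.5 near-identical copies in the table and the 40 had 3. A near-identical copy is another gene row whose transcript matches the coding sequence at 95% identity or more over at least 75% of it and whose exons are at most 3 times as long. The table held 495 such rows for the family, mostly processed pseudogenes, which the name rule does not include.

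Reads on these copies held 50.6% of the counts of genes and copies together, and in 51 genes they exceeded the counts on the gene's own row. The copies took 0.767%, 0.766%, 0.863% and 0.735% of counts in ko/ko replicates 1 to 4, against 0.765%, 0.866%, 1%, 1.22% and 1.16% in wt/wt replicates 1 to 5. Their mean was 0.783 ± 0.0552% in ko/ko (SD, n = 4) and 1 ± 0.194% in wt/wt (SD, n = 5). No source used here gives the handling of reads that match several places, so a copy's count cannot be told apart from reads of its parent. The order of libraries was much the same as for the genes' own rows, with wt/wt replicates 3 to 5 on top.

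Rpl3, the protein that helps form the peptidyl transferase centre, had 49.7, 25.6, 34.5 and 28.3 CPM on its own row in ko/ko replicates 1 to 4, against 59.6, 53.1, 27.9, 30.6 and 29.7 CPM in wt/wt replicates 1 to 5. Its 6 copies together had 249, 296, 313 and 289 CPM in ko/ko replicates 1 to 4, against 295, 354, 375, 445 and 456 CPM in wt/wt replicates 1 to 5. The own row was highest in ko/ko replicate 1 and wt/wt replicates 1 and 2, whereas the copies were highest in wt/wt replicates 3 to 5. With the copies added, the log2 fold change was -0.41 (SE 0.14), against -0.22 (SE 0.28) for the own row.

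Rpl10a had 58, 28.4, 38.7 and 35.7 CPM on its own row in ko/ko replicates 1 to 4, against 53.3, 54.3, 31.8, 31.3 and 31.3 CPM in wt/wt replicates 1 to 5. Its 1 copy had 116, 122, 146 and 134 CPM in ko/ko replicates 1 to 4, against 134, 149, 174, 221 and 233 CPM in wt/wt replicates 1 to 5. The same change of profile appeared, and the log2 fold change with the copy added was -0.40 (SE 0.15). Rpl24, mutated in belly spot and tail mice, had 94.1% of its counts on 4 copies, and its log2 fold change was 0.01 (SE 0.27) on its own row and -0.59 (SE 0.16) with the copies. For Rpl12 these values were 0.00 (SE 0.26) and -0.54 (SE 0.17).

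**Figure D4:**
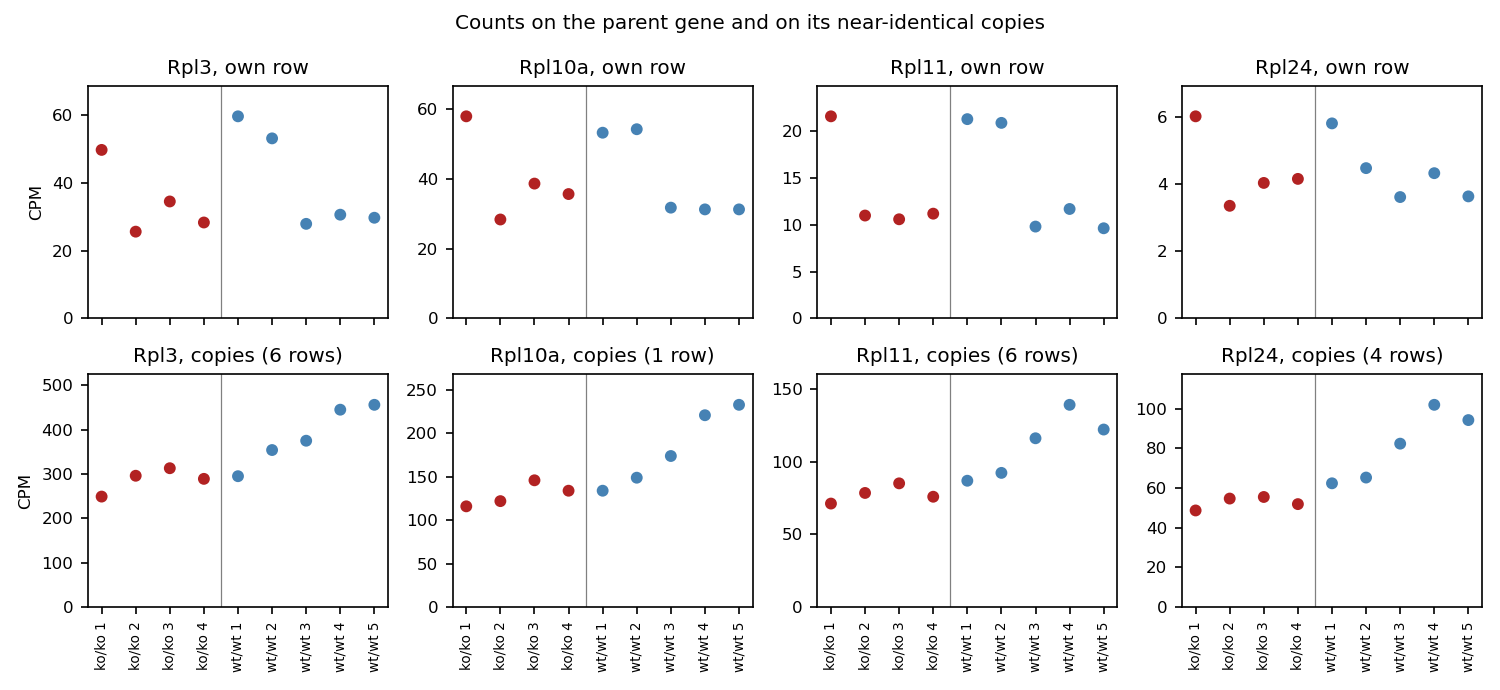
CPM (vertical axes, from 0) of 4 genes in each library, ko/ko in red left of wt/wt in blue, on the gene's own row (top) and summed over its near-identical copies (bottom). The own rows of Rpl3, Rpl10a, Rpl11 and Rpl24 are high in ko/ko replicate 1 and wt/wt replicates 1 and 2, such as 21.6, 21.3 and 20.9 CPM for Rpl11, while their copies are highest in wt/wt replicates 4 and 5.

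Over the family with copies added, 82 of 83 genes had a negative fold change, the exception being Rps2 at 0.12 (SE 0.22). The median was -0.50 and the range -1.01 to 0.12. In 65 genes the 3 highest libraries were then wt/wt replicates 3, 4 and 5. In 2 genes, Rps2 and Rps27, they were ko/ko replicate 1 and wt/wt replicates 1 and 2. Rps27 had 0 copy rows assigned to it, so its values were still those of its own row. Each copy was assigned to 1 gene only, and members such as Rps27rt were not added to each other. The choice to add copies was made after the values were seen.

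Levels per length tended to be lower in genes with more copies, with exceptions. Levels were computed as length-scaled shares of each library (TPM) from the counts and the exon length in the table, and averaged over the 9 libraries. The highest were Rpl4 at 1901, Rplp1 at 1351, Rpl8 at 1040, Rps26 at 900 and Rpl32 at 847 TPM. The lowest among tested genes were Rpl3l at 0.802, Rpl5 at 6.36, Rpl29 at 6.42, Rpl23a at 9.91, Rpl35a at 10.4 and Rpl24 at 10.4 TPM. Rpl29, Rpl23a and Rpl35a had 22, 11 and 14 copies, but Rpl3l had 0 and Rpl5 and Rpl24 had 4 each. The exon length of Rpl35a was 6.79 times its principal transcript. Rpl23a and Rpl24 shared 62.3% and 47% of their exon bases with other genes. The median was 158 TPM in the 18 genes with 0 or 1 copy and 24.2 TPM in the 15 genes with 10 or more. Spearman's rho across the 83 genes was -0.52 between number of copies and TPM, and 0.38 between the share of unique 50-base stretches and TPM. With levels scaled to the length of the principal transcript, the second value was 0.29 for the genes' own rows and 0.07 with copy counts added to each gene. Genes are not independent replicates, and the sequences of these genes share composition and libraries, so the values are a description.

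**Figure D5:**
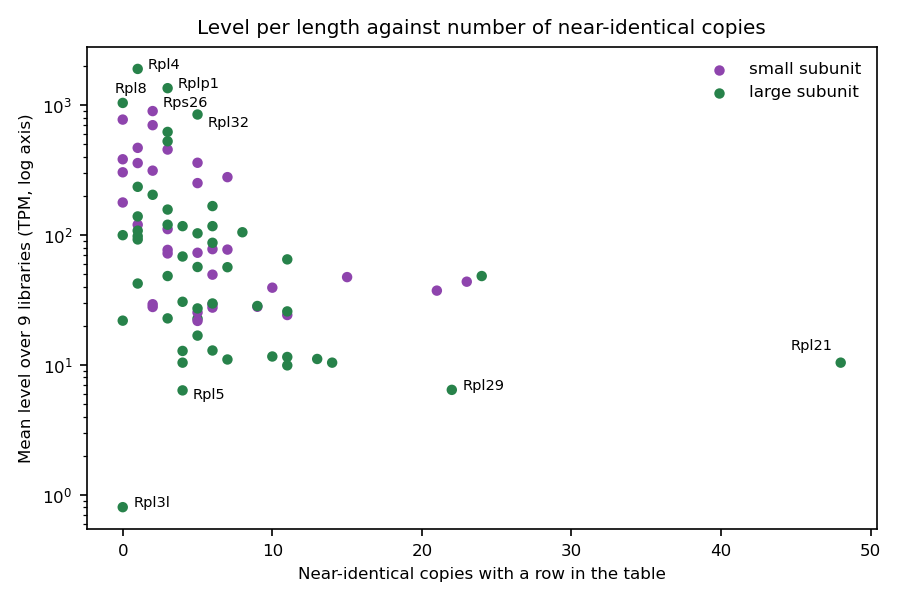
Mean level over 9 libraries in TPM (vertical log axis) against the number of near-identical copies that have a row in the table (horizontal axis), 1 point per tested gene, small subunit in purple and large subunit in green. Genes above 500 TPM have few copies, while Rpl29 and Rpl21, with 22 and 48 copies, lie near 10 TPM or lower; Rpl3l, with 0 copies, is lowest at 0.802 TPM.

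Rpl4, whose extension reaches into the exit tunnel, stood apart by its level. It held 17.5% of all counts on the 84 genes, and the 6 genes with the most counts held 43.3%. Rpl4 had 1298, 1576, 1537 and 1529 CPM in ko/ko replicates 1 to 4, against 1418, 1693, 1623, 1755 and 1693 CPM in wt/wt replicates 1 to 5. The groups overlapped and the log2 fold change was -0.14 (SE 0.14), so most of the difference in the summed share came from other genes. Rpl4 alone took 0.154 ± 0.0107% of counts in ko/ko and 0.158 ± 0.0128% in wt/wt (SD, n = 4 and 5). The next levels were less even between libraries: Rpl8, near the peptidyl transferase centre, had 229 to 372 CPM in ko/ko and 286 to 560 CPM in wt/wt (log2 fold change -0.46, SE 0.22). Rps26, at the mRNA exit channel, had 151 to 156 CPM in ko/ko and 139 to 204 CPM in wt/wt (-0.20, SE 0.14).

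The stalk that recruits translation factors is built of Rplp0, Rplp1 and Rplp2. Rplp0, its base, had 330, 375, 394 and 417 CPM in ko/ko replicates 1 to 4, against 350, 357, 504, 545 and 578 CPM in wt/wt replicates 1 to 5 (log2 fold change -0.30, SE 0.18). Rplp1 had 193, 258, 262 and 268 CPM in ko/ko replicates 1 to 4, against 177, 175, 361, 450 and 392 CPM in wt/wt replicates 1 to 5 (-0.34, SE 0.29). Rplp2 had 54.9, 64.9, 78.9 and 73.7 CPM in ko/ko replicates 1 to 4, against 61.2, 71, 101, 132 and 140 CPM in wt/wt replicates 1 to 5 (-0.57, SE 0.25). In all 3 stalk genes wt/wt replicates 3 to 5 lay above every ko/ko library, and wt/wt replicates 1 and 2 lay within or below the ko/ko range.

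On the small subunit, Rps6, the substrate of the S6 kinases, had 19.1, 21.2, 21.2 and 21.2 CPM in ko/ko replicates 1 to 4, against 29.7, 30.6, 27.7, 32.1 and 29.4 CPM in wt/wt replicates 1 to 5. It was among the genes with no overlap, at a log2 fold change of -0.53 (SE 0.13). Only 15.4% of the 50-base stretches of Rps6 were unique, and 86.6% of its counts were on 10 copies. With these copies added its log2 fold change was -0.55 (SE 0.16), still without overlap. Rps3, at the mRNA entry channel, had 379, 440, 397 and 396 CPM in ko/ko replicates 1 to 4, against 448, 551, 710, 928 and 913 CPM in wt/wt replicates 1 to 5 (-0.82, SE 0.22), again with no overlap. Of its 50-base stretches 97% were unique and it had 0 near-identical copies. Rpsa, also known as a laminin receptor, had 23.8 to 34 CPM in ko/ko and 23.4 to 61.2 CPM in wt/wt libraries (-0.61, SE 0.26). Rps27a, made as a fusion with ubiquitin, had 15.8 to 25.3 CPM in ko/ko and 22.2 to 31.1 CPM in wt/wt (-0.49, SE 0.18), and the X-linked Rps4x 109 to 170 CPM in ko/ko and 127 to 243 CPM in wt/wt (-0.34, SE 0.22).

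The genes of the dark skin mutants differed in overlap. Rps19 had 86.2, 69.6, 68.9 and 80.2 CPM in ko/ko replicates 1 to 4, against 100, 101, 107, 128 and 126 CPM in wt/wt replicates 1 to 5 (log2 fold change -0.56, SE 0.14). Rps20 had 127, 142, 164 and 156 CPM in ko/ko replicates 1 to 4, against 141, 155, 262, 354 and 350 CPM in wt/wt replicates 1 to 5 (-0.78, SE 0.28). Rps19 did not overlap between genotypes, while wt/wt replicates 1 and 2 lay within the ko/ko range of Rps20. Of 15 p53 targets and Kitl, 7 had positive and 8 negative fold changes, with a median of -0.03. EdgeR called 0 of them (0% of all genes lower and 0.00542% higher). Kitl had 21.2, 52.6, 39.4 and 25.1 CPM in ko/ko replicates 1 to 4, against 12.1, 34.5, 36.8, 26.3 and 24.4 CPM in wt/wt replicates 1 to 5 (0.37 on the log2 scale, SE 0.33, edgeR adjusted p = 0.623).

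Rpl5 and Rpl11 carry the ribosomal 5S RNA and, when unassembled, bind and inhibit Mdm2. Rpl5 had 7.59 to 9.89 CPM in ko/ko and 9.64 to 13.1 CPM in wt/wt libraries (log2 fold change -0.37, SE 0.18), with 90.8% of its counts on 4 copies and 26.7% of its exon bases shared with Fam69a and Snord21. Rpl11 had 21.6, 11, 10.6 and 11.2 CPM in ko/ko replicates 1 to 4, against 21.3, 20.9, 9.82, 11.7 and 9.64 CPM in wt/wt replicates 1 to 5 (-0.11, SE 0.32). The values of Rpl11 lay in 2 sets that did not follow genotype, and with its 6 copies added the log2 fold change was -0.47 (SE 0.14). Mdm2 itself averaged 119 ± 28.4 CPM in ko/ko (SD, n = 4) and 149 ± 16.5 CPM in wt/wt (SD, n = 5), with -0.33 on the log2 scale (SE 0.18, edgeR adjusted p = 0.416). In the list of p53 targets and Kitl, 2 genes were higher and 0 lower at an unadjusted edgeR p under 0.05. The shares of all genes were 8.86% higher and 6.42% lower.

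Further large subunit genes named by their roles were Rpl10, Rpl13a and Rpl38. Rpl10, added late in assembly near the tRNA sites, had 39.9 to 98.2 CPM in ko/ko and 62.2 to 109 CPM in wt/wt libraries (log2 fold change -0.22, SE 0.26). Rpl13a, released from the ribosome in human myeloid cells treated with interferon gamma, had 38.9, 33.4, 32 and 29.3 CPM in ko/ko replicates 1 to 4, against 41.5, 43.1, 46.7, 61.3 and 56.5 CPM in wt/wt replicates 1 to 5 (-0.58, SE 0.16), without overlap. Of its exon bases 35.4% are shared with Gm45713, Mir5121 and Snord33. Rpl38, mutated in Tail-short mice, had 24.9, 27.5, 27.7 and 27.7 CPM in ko/ko replicates 1 to 4, against 27.2, 32.9, 46.6, 59 and 47.6 CPM in wt/wt replicates 1 to 5 (-0.66, SE 0.21). Its 4 ko/ko values were close together, and wt/wt replicate 1 lay among them.

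Paralogs, which can take the place of their parent in a ribosome, gave pairs of values. Rpl22l1, the paralog of Rpl22 (coding identity 68.2%), had 71.2, 45.6, 49.3 and 50.5 CPM in ko/ko replicates 1 to 4, against 89.5, 87.1, 91.7, 109 and 96.3 CPM in wt/wt replicates 1 to 5 (log2 fold change -0.81, SE 0.16). All its ko/ko values were below all wt/wt values. Rpl22, known for its need in T cell development, had 103, 108, 119 and 100 CPM in ko/ko replicates 1 to 4, against 103, 111, 152, 186 and 190 CPM in wt/wt replicates 1 to 5 (-0.46, SE 0.20), with overlap. Scaled to exon length, the levels were 92.4 TPM for Rpl22l1 and 108 TPM for Rpl22. That length is 3.6 times the principal transcript for Rpl22l1 and 1.42 times for Rpl22. The order of the pair therefore depends on the length used.

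Rps27l, a p53 target with 76.1% coding identity to Rps27, had 91 to 108 CPM in ko/ko and 107 to 208 CPM in wt/wt libraries (log2 fold change -0.63, SE 0.20). The retrogene Rps27rt had 99.8, 95.7, 76.4 and 73.5 CPM in ko/ko replicates 1 to 4, against 102, 102, 127, 172 and 137 CPM in wt/wt replicates 1 to 5 (-0.57, SE 0.18), while Rps27 had 47.2, 25.1, 21.1 and 23.9 CPM in ko/ko replicates 1 to 4, against 51.3, 36.1, 26.8, 33.1 and 31.5 CPM in wt/wt replicates 1 to 5 (-0.29, SE 0.26). The retrogene row was at 701 TPM and its parent at 76.8 TPM. Only 8.92% of the 50-base stretches of Rps27rt and 1.35% of those of Rps27 were unique, so the split of reads between them is uncertain.

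Rpl36al and its parent Rpl36a (87.9% coding identity) were at -0.32 (SE 0.17) for Rpl36al and -0.46 (SE 0.17) for Rpl36a on the log2 scale. Rpl39l, known from male germ cells (85.3% identity to Rpl39), had 8.9, 3.98, 4.17 and 4.45 CPM in ko/ko replicates 1 to 4, against 8.03, 3.56, 8.11, 15.1 and 12.9 CPM in wt/wt replicates 1 to 5 (-0.83, SE 0.41). Rpl3l, the paralog of striated muscle (73.3% identity to Rpl3), was below 2 CPM throughout, with 0.289 to 0.498 CPM in ko/ko and 0.0481 to 1.73 CPM in wt/wt libraries (-0.84, SE 0.73). At such depth a difference in Rpl3l was not detectable.

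Other genes of translation were taken from lists made with earlier results of these data known, and edgeR called none of their tested genes. Over all genes it called 0% lower and 0.00542% higher, and 52.6% of all genes tested had a negative fold change. Fau, which encodes a small subunit protein fused to a ubiquitin-like one, averaged 28 ± 1.2 CPM in ko/ko (SD, n = 4) and 33.6 ± 4.27 CPM in wt/wt (SD, n = 5), at -0.26 on the log2 scale (SE 0.14, edgeR adjusted p = 0.391). Rack1, a scaffold on the small subunit, had 226, 268, 290 and 258 CPM in ko/ko replicates 1 to 4, against 222, 256, 333, 421 and 426 CPM in wt/wt replicates 1 to 5 (log2 fold change -0.35, SE 0.21, edgeR adjusted p = 0.447). Among elongation factors and other genes with a terminal oligopyrimidine tract, 16 of 17 were negative with a median of -0.33. Naca, a chaperone of nascent chains, averaged 52.2 ± 1.06 CPM in ko/ko (SD, n = 4) and 76.9 ± 12.1 CPM in wt/wt (SD, n = 5), at -0.56 (SE 0.14, edgeR adjusted p = 0.148). Eef1a1, which delivers tRNA, averaged 1350 ± 313 CPM in ko/ko (SD, n = 4) and 1899 ± 632 CPM in wt/wt (SD, n = 5), at -0.49 (SE 0.27, edgeR adjusted p = 0.412).

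Lists further from the ribosome itself had medians nearer 0. Initiation factors had 18 of 27 negative (median -0.07) and assembly factors 23 of 36 (median -0.10). RNA polymerase I genes had 11 of 17 negative (median -0.14) and hosts of small nucleolar RNAs 8 of 11 (median -0.26). Among all genes tested, 52.6% were negative, with a median of -0.03. Eif3b, a scaffold of the initiation factor complex that binds the small subunit, went against most of its list. Eif3b averaged 35.3 ± 3.35 CPM in ko/ko (SD, n = 4) and 24.9 ± 4.67 CPM in wt/wt (SD, n = 5), at 0.50 (SE 0.16, edgeR adjusted p = 0.209). Of the same list, Eif3m was at -0.56 (SE 0.19, edgeR adjusted p = 0.219) and Eif2s1 at -0.35 (SE 0.13, edgeR adjusted p = 0.258). Rrn3, which brings RNA polymerase I to the ribosomal RNA genes, averaged 40.6 ± 10.3 CPM in ko/ko (SD, n = 4) and 60.7 ± 4.37 CPM in wt/wt (SD, n = 5), at -0.58 (SE 0.18, edgeR adjusted p = 0.194). Of the genes that control translation of these mRNAs, 14 of 21 were positive (median 0.07). Among them Larp1, the binder of the tract, had 20.5, 21.2, 24.5 and 22.9 CPM in ko/ko replicates 1 to 4, against 11.1, 22.5, 12, 14.2 and 9.73 CPM in wt/wt replicates 1 to 5. Wt/wt replicate 2 lay inside the ko/ko range of Larp1, and its log2 fold change of 0.68 (SE 0.23) did not pass (edgeR adjusted p = 0.223). Eif4ebp1, a repressor of cap-dependent initiation, averaged 39.1 ± 5.55 CPM in ko/ko (SD, n = 4) and 30.4 ± 3.08 CPM in wt/wt (SD, n = 5), at 0.36 (SE 0.15, edgeR adjusted p = 0.275). Myc, a driver of ribosome synthesis, averaged 976 ± 147 CPM in ko/ko (SD, n = 4) and 979 ± 165 CPM in wt/wt (SD, n = 5), at -0.01 (SE 0.17, edgeR adjusted p = 0.99).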

How the data were processed

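The authors deposited 1 table of raw counts per gene for the 9 libraries, with the exon length of each gene. GSNAP, featureCounts 1.6.2 and mm10 are named per the submitters' processing notes. No source used here gives strand, multi-mapping or duplicate settings. Of 49763 rows, 92 spike-in rows were left out. Symbols came from GENCODE M21 by identifier (49412 rows matched). CPM values (counts scaled to library size) of genes use TMM-adjusted library sizes; shares, marker sums and the Gm10800 group use library totals.

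Tests ran in R 4.3.3 with edgeR 4.0.16 (filterByExpr, TMM, glmQLFit with robust=TRUE, two-sided, threshold 0.05). The SE divides the size of the log2 fold change by the root of F. DESeq2 1.42.0 and limma 3.58.1 (voom with quality weights) were alternatives. The test was checked on simulated data. Copies were found with BLAST 2.17.0. Replicate numbers follow accession order. The members and all lists were chosen with earlier results of these data known. The naming rule took genes by role, paralogs, the 6 highest and 6 lowest levels, the 6 most positive and 6 most negative fold changes and any called gene; some genes it names are not reported here, and the other genes printed were chosen after their values were seen. Depth was 15601859 to 23200440 counts per library.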

Additional observations from a re-analysis of the deposited data

Results flagged for a closer look

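In 8 genes the ko/ko replicate 1 library lay further from the other 3 ko/ko libraries than Dixon's 95% limit allows, among 94 groups of values examined; chance flags about 1 in 20. On the log2 CPM scale it was higher for Rpl11, at 4.46 against 3.47 to 3.55 in the remaining ko/ko libraries, and for Rpl39l, at 3.23 against 2.17 to 2.31. It was lower for Rpl4, at 10.34 against 10.58 to 10.62, for Rplp1, at 7.60 against 8.01 to 8.07, and for Rps6, at 4.29 against 4.44 in each of the others. It was also lower for Rpl36a, at 3.39 against 3.80 to 3.87, for Rpl36al, at 5.34 against 5.65 to 5.71, and for Rpl38, at 4.67 against 4.81 to 4.82.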

How the results depend on the processing

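The members' median log2 fold change stayed between -0.50 and -0.30 over 23 other settings, and 72 to 82 members had a negative sign. Members called lower numbered 0 by edgeR, 12 by DESeq2 and 39 by limma voom. Over all genes edgeR called 1 higher and 0 lower; this became 4 higher with library totals alone, 26 higher and 2 lower with no count filter, 2 higher with a stricter filter, 7 higher without the 3 Gm10800-rich libraries, 438 higher and 192 lower by DESeq2 and 1217 higher and 585 lower by voom, and 0 to 12 higher with 1 library left out. The ko/ko minus wt/wt difference in the share of counts taken by members was -0.183 percentage points, and -0.404 with near-identical copies. Members with an unadjusted p under 0.05 and lower numbered 28 with library totals alone to 58 by limma voom, against 39 in the main edgeR fit. The share of all genes was 6.42% in the main fit and is not given here for the other settings, so nothing is read from this range. The median of all genes was 0.14 with no count filter and 0.08 with library totals alone, against -0.03, and the members' median minus these was -0.60 and -0.38. Of 43 named genes, 9 changed sign under some setting. Their reported log2 fold changes lay between -0.21 and 0.17; the changed values reached -0.54 for Rpl12 and -0.59 for Rpl24 with near-identical copies and -0.35 for Rps2 without ko/ko replicate 1. No paired analysis was possible because replicate numbers only follow accession order. Low counts limited Rpl3l and Rpl10l.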
